A study of Mus musculus with 12 samples.

Results

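The 3 arrays of the control pool were compared with all 9 arrays of the treated pools, as the average of the 3 treated group means minus the control mean, and the genes whose control arrays all lay above or all below the 9 treated arrays were taken. Of 17380 genes with their own symbol on the array, 464 (2.67%) were separated in this way, 209 (1.2%) with all treated arrays higher and 255 (1.47%) with all treated arrays lower. The question was which hypothalamic genes set every treatment of the study apart from control, whatever the agent. All 12 samples of the series entered the comparison.

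The mice were male C57Bl/6J mice killed at 21 weeks of age, and hypothalamic RNA was read on Affymetrix Mouse Gene ST arrays. Control mice (CON) had water to drink. CGP mice received CGP 39551, which competes with glutamate at the NMDA receptor (NMDAR), at 5 mg/kg through their mothers' drinking water until postnatal day 28. ASP mice had the sweetener aspartame in the drinking water, at 46 mg/kg, beginning through the mother and continuing until they were killed, and ASP+CGP mice had both agents. Each group's mice gave 1 pool of RNA, which was applied to 3 arrays, so there were 4 pools and the arrays of a pool were technical repeats. Adjusted p-values below measure the spread between arrays, and a shared effect of the treatments cannot be told apart from anything else that set the CON pool apart from the other 3. A permutation over the 4 pools cannot go below p = 0.25.

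The hypothalamus is a patchwork of small nuclei whose neurons are named after the peptides they release, such as vasopressin, oxytocin, thyrotropin-releasing hormone or orexin. It lies beneath the thalamus, which relays sensory signals to the cortex, and the habenula, a small epithalamic nucleus rich in nicotinic acetylcholine receptors. Tanycytes line the floor of the third ventricle, the choroid plexus secretes cerebrospinal fluid into it, and the meninges cover the surface of the tissue. NMDAR need glycine or D-serine beside glutamate to open, and glycine is also an inhibitory transmitter of the hindbrain and spinal cord.

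The separated genes were mostly shifted by little, and since separation and test rest on the same arrays the values of the separated genes are a description. On the log2 scale the median absolute difference was 0.168 among the 209 higher and 0.132 among the 255 lower genes, against 0.0447 over all genes. An adjusted p under 0.05 was reached by 91 and 78 of them, and by 353 of all genes (2.03%), and an unadjusted p under 0.05 by 1253 higher (7.21%) and 1112 lower (6.4%) of all genes. With the pool as a random block, at an estimated correlation of 0.177 between arrays of a pool, 19 of these 353 genes still passed, 10 higher and 9 lower. That fit used 1 correlation for all genes and 10 residual degrees of freedom. It thus still counted repeat arrays of a pool, with 1 pool for CON, and passing it is no replication. A fold change over 1.2 was reached by 35 higher and 24 lower separated genes. The nearest CON and treated arrays were at least 0.1 apart in 29 and 20. The larger differences lay in genes of several kinds. The neuronal glycine transporter gene Slc6a5, the vasopressin and oxytocin genes and the histamine-synthesizing enzyme gene Hdc were lower in all treated pools. Genes of the habenula and thalamus together with the transthyretin gene Ttr were higher. The largest separated falls after Slc6a5 were those of Bpifa1, Lamp5, Prg4 and Mir376a, which have no gene list in common.

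The promoters of the genes with the clearest separation are shown first, since these genes carry the comparison. The 250 bases before the annotated transcription start (RefSeq, GRCm38.p6, 5′ to 3′ on the gene's strand, first listed start) are given for the 3 genes in each direction that had the widest gap between CON and treated arrays among those with a window in the promoter table. Capitals mark a match, on either strand, to the TATA box TATAAA, the cyclic AMP response element TGACGTCA or the TCF/LEF core CTTTGA, none of which contains another.
Slc6a5, chr7:49910049-49910298 (+): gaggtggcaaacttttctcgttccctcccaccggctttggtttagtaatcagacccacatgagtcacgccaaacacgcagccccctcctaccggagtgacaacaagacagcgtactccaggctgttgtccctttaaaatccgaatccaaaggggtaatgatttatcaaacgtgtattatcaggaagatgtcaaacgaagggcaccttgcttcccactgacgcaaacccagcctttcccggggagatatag
Bpifa1, chr2:154142630-154142879 (+): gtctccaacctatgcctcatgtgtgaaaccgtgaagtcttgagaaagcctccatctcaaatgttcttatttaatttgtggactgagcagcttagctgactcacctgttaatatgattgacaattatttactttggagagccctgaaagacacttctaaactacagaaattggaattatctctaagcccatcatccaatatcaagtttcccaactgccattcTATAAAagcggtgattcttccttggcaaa
Lamp5, chr2:136052089-136052338 (+): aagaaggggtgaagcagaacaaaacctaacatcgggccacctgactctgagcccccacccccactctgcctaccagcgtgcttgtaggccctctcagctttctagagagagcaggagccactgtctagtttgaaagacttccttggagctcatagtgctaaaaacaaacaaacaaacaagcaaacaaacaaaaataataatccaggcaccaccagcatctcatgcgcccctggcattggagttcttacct
Chrnb4, chr9:55048545-55048794 (-): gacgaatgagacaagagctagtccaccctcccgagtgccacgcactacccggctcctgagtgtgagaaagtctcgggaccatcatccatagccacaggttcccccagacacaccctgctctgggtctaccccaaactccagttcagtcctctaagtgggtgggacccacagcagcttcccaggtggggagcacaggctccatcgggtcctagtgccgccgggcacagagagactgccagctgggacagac
Ramp3, chr11:6658283-6658532 (+): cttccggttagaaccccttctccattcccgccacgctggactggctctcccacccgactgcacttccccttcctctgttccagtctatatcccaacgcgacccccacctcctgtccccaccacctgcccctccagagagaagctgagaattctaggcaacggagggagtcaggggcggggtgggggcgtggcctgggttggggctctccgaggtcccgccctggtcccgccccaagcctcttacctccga
Prkcd, chr14:30626209-30626458 (-): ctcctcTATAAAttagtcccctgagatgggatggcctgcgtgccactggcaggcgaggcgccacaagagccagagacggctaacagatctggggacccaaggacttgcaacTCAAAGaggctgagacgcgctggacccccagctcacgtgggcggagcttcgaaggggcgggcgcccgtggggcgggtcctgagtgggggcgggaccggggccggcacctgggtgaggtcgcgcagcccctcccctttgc

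A TATA box was found in the Bpifa1 and Prkcd windows and a TCF/LEF core in the Prkcd window. Windows were at hand for 13614 of the 17380 genes, 159 of the 209 higher and 217 of the 255 lower genes. TATAAA occurred in 8.48% of all windows, 11.3% of the higher and 8.76% of the lower genes' windows. The shares for CTTTGA were 11.9%, 9.43% and 13.8%, and those for TGACGTCA were 2.33%, 0.629% and 3.23%. A match is a description of the letters and no binding site.

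Slc6a5 (chr7:49906984-49963864) showed the widest separation of all genes. It encodes GlyT2, the transporter that refills the terminals of glycinergic neurons. Its log2 signal was 9.37, 9.61 and 9.33 in CON, 7.46, 7.33 and 7.43 in CGP, 8.11, 8.03 and 7.88 in ASP and 7.43, 7.51 and 7.65 in ASP+CGP. All CON arrays were far above the rest, with a gap of 1.22 to the nearest treated array. Averaged over the treated pools Slc6a5 was 3.46-fold lower than CON (log2 difference -1.79 ± 0.07, SE, n = 3 CON and 9 treated arrays, adjusted p = 1.74e-09; limma with Benjamini-Hochberg adjustment over all single-symbol probe sets, as for every adjusted p below). The treated pools were not alike, since the difference from CON was -2.03, -1.43 and -1.91 in CGP, ASP and ASP+CGP, a difference among the pools with adjusted p = 0.000731 in limma's F test.

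Of 16 measured genes of glycine neurotransmission 2 had separated arrays, both lower and both passing the test (Slc6a5 alone with the pool as a random block), and the median difference of the list was -0.04 against 0.0006 over all genes. The other was Glra1, the alpha 1 subunit of the glycine receptor, with log2 signals of 10.02, 9.93 and 9.88 in CON and between 9.52 and 9.73 on the treated arrays. It fell by 0.28 ± 0.04 (SE, adjusted p = 0.00103). Slc32a1, the vesicular transporter that loads glycine and GABA, had a difference of -0.07 and did not pass the test (adjusted p = 0.349), nor did the glial glycine transporter gene Slc6a9 (0.07, adjusted p = 0.562). Slc6a5 is also a marker of the hindbrain and spinal cord, and in that list of 20 measured genes 2 were separated and lower, 1 was separated and higher, and the median was 0.04. Its second lower gene was Tph2, the brain tryptophan hydroxylase of serotonin synthesis, which fell by 0.40 ± 0.07 (adjusted p = 0.00680). The difference was positive for 14 of the 20, and without Slc6a5 the summed linear signal of the other 19 was 2401 to 2507 on the CON arrays and 2319 to 2790 on the treated arrays.

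The next largest falls were those of Bpifa1 and Lamp5. Bpifa1 (chr2:154142880-154149217), a secreted protein of airway and salivary epithelium, read 7.84, 7.73 and 8.05 in CON, 6.99, 7.06 and 6.92 in CGP, 6.91, 6.84 and 6.74 in ASP and 6.82, 6.90 and 6.96 in ASP+CGP. CON stood clear of all treated arrays, and the treated pools lay close together at a level near the low end of the array's range. The difference was -0.97 ± 0.06 (adjusted p = 4.32e-07), and the treated pools did not pass the test of a difference among themselves (adjusted p = 0.364). Among 13 measured genes of secretory and respiratory epithelium Bpifa1 was the 1 gene with separated arrays, and the list median was 0.01. Lamp5 (chr2:136052025-136069917), a membrane protein of forebrain neurons, fell by 0.55 ± 0.05 (adjusted p = 1.47e-05), with log2 signals of 9.71, 9.79 and 9.60 in CON against 9.03 to 9.22 in the treated arrays. Its difference from CON was -0.58, -0.54 and -0.53 in CGP, ASP and ASP+CGP.

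**Figure D1:**
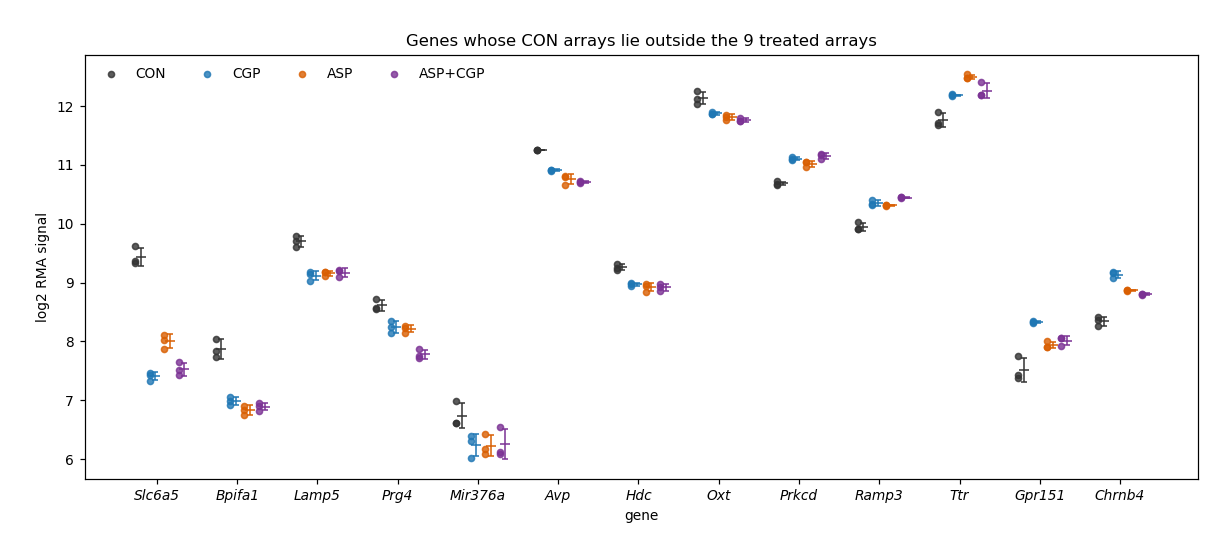
Log2 RMA signal (vertical axis) of 13 genes (horizontal axis) on the 3 arrays of each of the 4 pools, each array a point, with the mean and SD of a pool beside its points. The 3 CON arrays lie above all 9 treated arrays for the 8 genes from Slc6a5 to Oxt and below them for the 5 genes from Prkcd to Chrnb4, with the widest gap for Slc6a5 (1.22).

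Some hypothalamic peptide genes were lower in the treated pools. Of 30 measured genes of the list 7 had separated arrays, all lower, 7 passed the test downwards (of all genes 101, or 0.581%, did so), and the list median was -0.11. With the pool as a random block 3 of the 30 passed, Avp, Trh and Oxt, and adjusted p was 0.162 for Adcyap1, 0.390 for Hcrt, 0.466 for Cartpt and 0.498 for Pmch. Avp, which encodes vasopressin, read 11.26, 11.25 and 11.26 in CON, 10.91, 10.92 and 10.89 in CGP, 10.67, 10.80 and 10.81 in ASP and 10.70, 10.71 and 10.72 in ASP+CGP. No array of a treated pool came within 0.33 of the CON arrays, which were almost identical. Avp fell by 0.46 ± 0.04 (adjusted p = 4.18e-06), less in CGP (-0.35) than in ASP (-0.50) and ASP+CGP (-0.55), with an adjusted p among the treated pools of 0.0318.

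Oxt, the oxytocin gene, lies 3565 bases from Avp on chromosome 2 (Oxt chr2:130574519-130577054, Avp chr2:130580620-130582588). Its signals were 12.04, 12.12 and 12.25 in CON, 11.86, 11.87 and 11.91 in CGP, 11.76, 11.85 and 11.82 in ASP and 11.75, 11.75 and 11.80 in ASP+CGP, again with CON on top of all treated arrays. It fell by 0.32 ± 0.04 (adjusted p = 0.00073), and the treated pools did not pass the test among themselves (adjusted p = 0.346). Trh, thyrotropin-releasing hormone, fell by 0.27 ± 0.03 (adjusted p = 0.000319). Adcyap1, which encodes the peptide PACAP, fell by 0.26 ± 0.04 (adjusted p = 0.00512), and Cartpt, an appetite-suppressing peptide of the arcuate nucleus, by 0.24 ± 0.05 (adjusted p = 0.0265). Cartpt lay just inside the rule, with a gap that rounds to 0.00 between 10.49 on the lowest CON array and 10.49 on the highest treated array.

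Both lateral hypothalamic peptides fell a little. Hcrt, the orexin precursor, had separated arrays and fell by 0.15 ± 0.03 (adjusted p = 0.0259), whereas Pmch, melanin-concentrating hormone, fell by 0.26 ± 0.06 (adjusted p = 0.0409) with overlapping arrays. Sst, somatostatin, had separated arrays and a difference of -0.15 that did not pass the test (adjusted p = 0.0831). The appetite peptide genes Npy (-0.06, adjusted p = 0.757) and Pomc (-0.06, adjusted p = 0.522) overlapped between CON and treated arrays, as did Crh (-0.02, adjusted p = 0.903), which drives the stress axis. Pomc is also a pituitary gene, and its difference from CON was 0.59, 0.91 and -1.67 in CGP, ASP and ASP+CGP, beside a summed signal of the 15 measured pituitary genes of 22538 to 23890 on CON and 8509 to 42683 on treated arrays. The summed linear signal of the 30 peptide genes ran from 48027 to 53370 on the CON arrays and from 42381 to 47427 on the treated arrays. In RNA of a whole tissue, fewer cells of a type and less RNA per cell cannot be told apart. Of the 7 genes that passed downwards 4, 3 and 6 passed again when CGP, ASP or ASP+CGP was left out of the average. Of all 30 genes 5, 4 and 8 passed downwards in these fits, and 1 passed upwards without ASP+CGP.

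Hdc, the enzyme that makes histamine in the tuberomammillary nucleus, read 9.22, 9.25 and 9.32 in CON, 8.995, 8.97 and 8.94 in CGP, 8.95, 8.97 and 8.85 in ASP and 8.98, 8.92 and 8.86 in ASP+CGP. All treated arrays were at least 0.23 lower than CON. It fell by 0.33 ± 0.04 (adjusted p = 0.00037), and the difference was -0.30, -0.34 and -0.35 in the treated pools, which did not pass the test among themselves (adjusted p = 0.712). Among 19 measured transcription factors of the hypothalamus 4 were separated and lower and 2 separated and higher, and the median was -0.03. In the test 3 fell and 4 rose, and with the pool as a random block only Bsx passed (adjusted p = 0.0441). Bsx and Fezf1, homeodomain and zinc finger factors of the ventral and medial hypothalamus, fell by 0.23 ± 0.03 (adjusted p = 0.00171) and 0.24 ± 0.04 (adjusted p = 0.00597). Otp, needed for peptide neurons of the paraventricular nucleus, fell by 0.16 ± 0.03 (adjusted p = 0.0195), while its partner Sim1 had a difference of -0.16 with adjusted p = 0.179. Lef1, a factor of the Wnt pathway, rose by 0.28 ± 0.04 (adjusted p = 0.000777), and Lhx8, a LIM factor of cholinergic forebrain neurons, by 0.23 ± 0.04 (adjusted p = 0.00272).

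A few genes of the ventricular lining and of the brain's coverings were lower. Of 14 measured genes of ependyma and tanycytes 2 were separated and passed the test, Fndc3c1 and Gpr50, and the median was -0.07. Neither passed with the pool as a random block (lowest adjusted p of the list = 0.077). Gpr50, an orphan relative of the melatonin receptors, fell by 0.28 ± 0.04 (adjusted p = 0.00208), from 9.86, 9.90 and 9.87 in CON to between 9.46 and 9.69, and Fndc3c1 fell by 0.39 ± 0.06 (adjusted p = 0.00246). In the list of meninges and perivascular fibroblasts 4 of 21 measured genes were separated and 7 passed the test, all lower, with a median of -0.08. None of the 7 passed with the pool as a random block, with adjusted p of 0.234 for Prg4, 0.154 for Slc47a1, 0.822 for Slc6a13 and 0.890 for Igf2. The list includes Prg4, Fmod, Dapl1 and Lcn2, which the study had reported from these arrays as lower in ASP+CGP. Its counts and its medians by pool are therefore a description. Prg4 (chr1:150449412-150466221), the lubricating proteoglycan lubricin, read 8.54, 8.57 and 8.72 in CON, 8.25, 8.14 and 8.34 in CGP, 8.23, 8.15 and 8.27 in ASP and 7.75, 7.72 and 7.87 in ASP+CGP. CON was highest and ASP+CGP lowest, with CGP and ASP between. It fell by 0.53 ± 0.05 (adjusted p = 4.96e-05), by 0.48 without the third CON array and by 0.38 without the ASP+CGP pool in the average, both less than 1.4-fold.

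The meningeal genes were not equally low in the 3 treated pools. Prg4 differed among them with adjusted p = 0.000475, Slc6a13, a GABA and taurine transporter, with 1.98e-05 and Igf2, a growth factor, with 0.000494. For Slc6a13 the difference from CON was -0.08, -0.25 and -0.53 in CGP, ASP and ASP+CGP. The median of the list was -0.03 in both CGP and ASP and -0.34 in ASP+CGP. Leaving the ASP+CGP pool out of the average moved it from -0.08 to 0.00 with 3 genes passing the test downwards in place of 7. Slc47a1, an organic cation exporter, fell by 0.30 ± 0.04 (adjusted p = 0.00110) and did not pass the test among the treated pools (adjusted p = 0.0708). The collagen genes Col1a1, Col1a2 and Col3a1 of the same list had differences of 0.02, 0.02 and 0.01 with overlapping arrays. The summed signal of the tanycyte list was 6297 to 6612 on CON and 6058 to 6282 on treated arrays and that of the meningeal list 22276 to 23077 against 18857 to 22501, and the part of either in the peptide results was not tested.

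**Figure D2:**
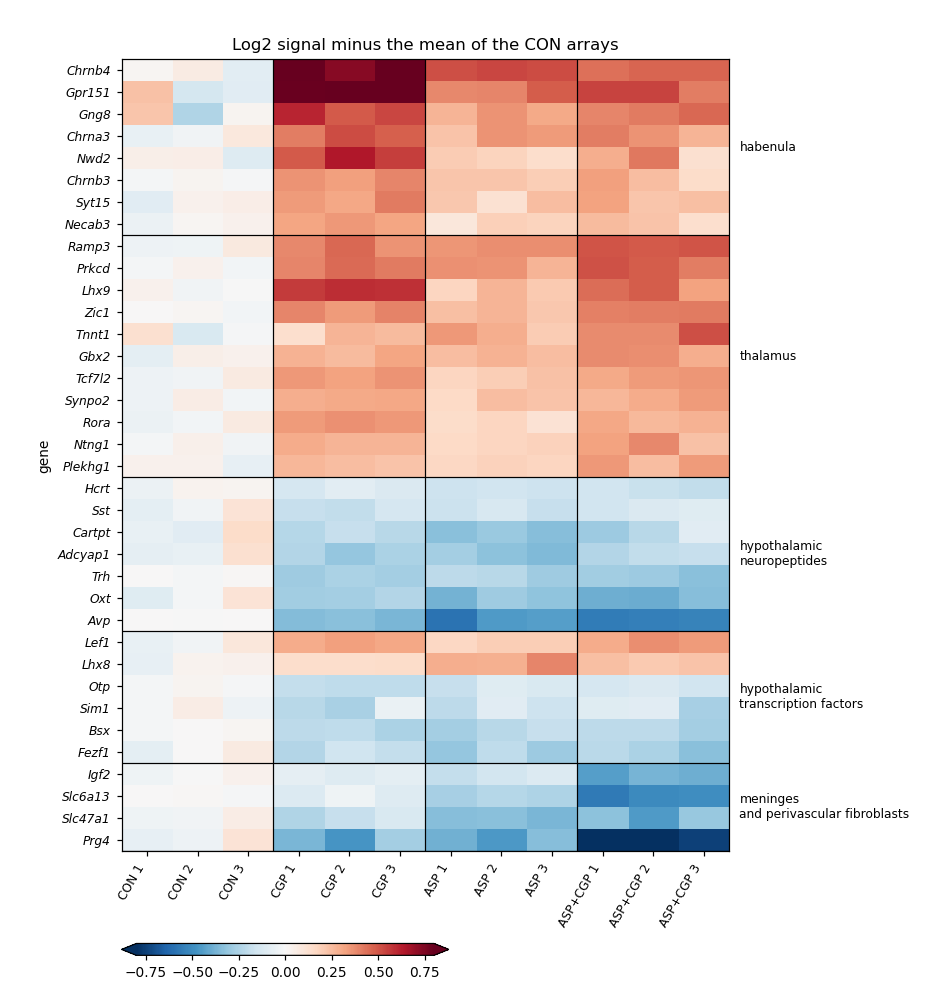
Log2 signal minus the mean of the 3 CON arrays (colour, darkest shades at 0.8 or beyond in either direction) for the separated genes of 5 gene lists (rows) on the 12 arrays (columns, black lines between pools). The 8 habenular and 11 thalamic genes are red on all 9 treated arrays, with the strongest shades for habenular genes in CGP, and the 7 peptide and 4 meningeal genes are blue, with the darkest shade for Prg4 in ASP+CGP.

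Of the 36 lists, chosen with earlier results of these data known, the habenular list had the largest share of separated members. Of 13 measured genes 8 were separated and 11 passed the test, all higher in the treated pools, and the median was 0.27. Only 2 of the 13 passed with the pool as a random block, Chrnb4 and Chrna3, and adjusted p was then 0.111 for Gpr151 and 0.197 for Gng8. Of all genes 252 (1.45%) passed the test upwards. Chrnb4 and Gpr151 of this list and Lhx9 of the thalamic list had been reported from these arrays as higher in CGP. The rank of the list is therefore a description. Chrnb4 (chr9:55028154-55048953), the beta 4 subunit of the nicotinic acetylcholine receptor, read 8.36, 8.41 and 8.26 in CON, 9.16, 9.08 and 9.17 in CGP, 8.86, 8.88 and 8.87 in ASP and 8.79, 8.81 and 8.81 in ASP+CGP. Every treated array was above every CON array and the CGP arrays were highest. Chrnb4 rose by 0.59 ± 0.04 (adjusted p = 4.51e-07), and the 3 treated pools differed (adjusted p = 0.000796), with rises of 0.79, 0.53 and 0.46 in CGP, ASP and ASP+CGP.

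Chrna3, the alpha 3 subunit gene beside Chrnb4 on chromosome 9 (chr9:55010117-55026562), rose by 0.38 ± 0.05 (adjusted p = 0.000409), and Chrnb3, another nicotinic subunit, by 0.27 ± 0.04 (adjusted p = 0.00133). Gpr151, an orphan receptor of habenular neurons, read 7.75, 7.38 and 7.43 in CON, 8.31, 8.35 and 8.34 in CGP, 7.90, 7.91 and 8.005 in ASP and 8.06, 8.06 and 7.93 in ASP+CGP. The first CON array came nearest to the treated arrays, at a distance of 0.15. Gpr151 rose by 0.58 ± 0.06 (adjusted p = 0.000193), most in CGP (adjusted p among the treated pools = 0.0164), and without the CGP pool in the average it rose by 0.46, under 1.4-fold. Gng8, a G protein gamma subunit, rose by 0.43 ± 0.07 (adjusted p = 0.00427), and by 0.54 without the first CON array, which is over 1.4-fold. Pou4f1, a transcription factor of the medial habenula, rose by 0.26 (adjusted p = 0.0281) with overlapping arrays, and the substance P precursor gene Tac1 had a difference of -0.18 (adjusted p = 0.205).

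Many thalamic genes rose too. Of 20 measured genes 11 were separated and 13 passed the test, all higher, and the median was 0.26. Of these 5 passed with the pool as a random block, Ramp3, Prkcd, Zic1, Gbx2 and Synpo2, and adjusted p was 0.162 for Lhx9. Shox2, which is not in the list, had an adjusted p of 0.154 with the block. Ramp3, a partner protein of the calcitonin receptor family, read 9.91, 9.91 and 10.02 in CON, 10.33, 10.41 and 10.31 in CGP, 10.30, 10.32 and 10.32 in ASP and 10.45, 10.44 and 10.45 in ASP+CGP. The lowest treated array lay 0.28 above the highest CON array. The rise was 0.42 ± 0.04 (adjusted p = 1.25e-05) and did not pass the test of a difference among treated pools (adjusted p = 0.169).

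Prkcd, the protein kinase C delta of relay nuclei, had log2 signals of 10.67, 10.72 and 10.67 in CON and between 10.96 and 11.19 on the treated arrays, and it rose by 0.41 ± 0.04 (adjusted p = 1.67e-05). Transcription factors of the thalamic list rose as well. Of these Zic1 is also in the cerebellar list and in that of septum and preoptic area, and Rora is also in the clock list. Lhx9 rose by 0.41 ± 0.04 (adjusted p = 4.60e-05), Zic1 by 0.34 ± 0.03 (adjusted p = 2.12e-05), Gbx2 by 0.29 and Tcf7l2 by 0.29, and the nuclear receptor Rora by 0.26 ± 0.03 (adjusted p = 0.00073). Lhx9, Zic1 and Rora differed among the treated pools and were lowest of the 3 in ASP. Shox2, another homeobox gene, rose by 0.45 ± 0.08 (adjusted p = 0.00815) and by 0.50 without the third ASP+CGP array, over 1.4-fold. Slc17a6, the vesicular glutamate transporter of thalamic and hypothalamic neurons, had a difference of 0.11 (adjusted p = 0.320), whereas Slc17a7, the transporter of cortical neurons, rose by 0.34 ± 0.05 (adjusted p = 0.00338).

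The summed linear signal of the thalamic list was 27854 to 28779 on the CON arrays and 30437 to 33588 on the treated arrays, and that of the habenular list was 5858 to 6182 against 6270 to 7324. The lists of thalamus and habenula therefore lay higher on every treated array than on any CON array, while the summed peptide genes lay lower. The thalamus adjoins the hypothalamus in the tissue, and the part of thalamus or habenula in the peptide result was not tested. Of the 11 habenular genes that passed, 11 passed again when ASP was left out of the average, 6 when CGP was and 10 when ASP+CGP was, and of the 13 thalamic genes 12, 11 and 13.

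Receptor genes for the transmitter GABA lay on both sides. Of 18 measured genes of GABA signalling 2 were separated and higher and 3 separated and lower, with a median of 0.02. In the test 2 rose and 2 fell, and with the pool as a random block none passed (lowest adjusted p = 0.154). Gabra4 and Gabrd, the subunits of extrasynaptic receptors of the thalamus, rose by 0.25 ± 0.03 (adjusted p = 0.00124) and 0.24 ± 0.03 (adjusted p = 0.00169). Gabrq, the theta subunit of hypothalamic and brainstem neurons, fell by 0.20 ± 0.03 (adjusted p = 0.00330), and Gabre, the epsilon subunit, had a difference of -0.26 with adjusted p = 0.0538. None of the 6 measured NMDAR subunit genes was separated and none passed the test, with differences from -0.01 for Grin2d to 0.16 ± 0.07 for Grin2b (adjusted p = 0.317). Actb, a cytoskeletal gene used as a reference, had a difference of 0.04 ± 0.04 (adjusted p = 0.750).

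Ttr, transthyretin, is the carrier of thyroid hormone made by the choroid plexus. It read 11.71, 11.68 and 11.90 in CON, 12.18, 12.20 and 12.18 in CGP, 12.48, 12.54 and 12.48 in ASP and 12.19, 12.19 and 12.41 in ASP+CGP. The third CON array was the highest of its pool and still 0.28 under the lowest treated array. Ttr rose by 0.56 ± 0.05 (adjusted p = 4.11e-05), most in ASP (adjusted p among the treated pools = 0.0208), and by 0.46 without the ASP pool in the average, under 1.4-fold. Of 13 measured choroid plexus genes it was the 1 separated gene and 2 passed the test, the other being the transcription factor gene Otx2 (0.26, adjusted p = 0.00932), with a list median of 0.12. The difference was positive for 12 of the 13. Sostdc1, Aqp1 and F5 had differences of 0.21, 0.21 and 0.17, and Folr1, Kl and Kcnj13 of 0.10, 0.02 and -0.01. None of these genes passed the test. The summed signal of the list was 5748 to 6427 on CON and 7298 to 8666 on treated arrays, most of it Ttr, and without Ttr that of the other 12 genes was 2406 to 2617 against 2612 to 2826.

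Further genes, all but Nwd2 of the habenular list outside these groups, were among the largest separated differences. Of the genes named here only Ccn3 passed with the pool as a random block (adjusted p = 0.0441). Scube1, a secreted signalling protein, rose by 0.41 ± 0.04 (adjusted p = 4.93e-05), most in CGP (0.63), and Nwd2 by 0.34 ± 0.06 (adjusted p = 0.00554), also most in CGP (0.56). Nfam1, an immune receptor gene, rose by 0.35 ± 0.04 (adjusted p = 0.000499) and did not differ beyond the threshold among the treated pools (adjusted p = 0.160). The rises of Hp, which encodes the haemoglobin-binding haptoglobin, and Acp5, an acid phosphatase of osteoclasts and macrophages, were largest in ASP, at 0.96 and 0.63. Among the falls were those of the matricellular protein gene Ccn3, by 0.32 ± 0.04 (adjusted p = 0.00074), and of placental growth factor, Pgf, by 0.31 ± 0.06 (adjusted p = 0.0149). Neither differed beyond the threshold among the treated pools (adjusted p = 0.369 and 0.542).

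**Figure D3:**
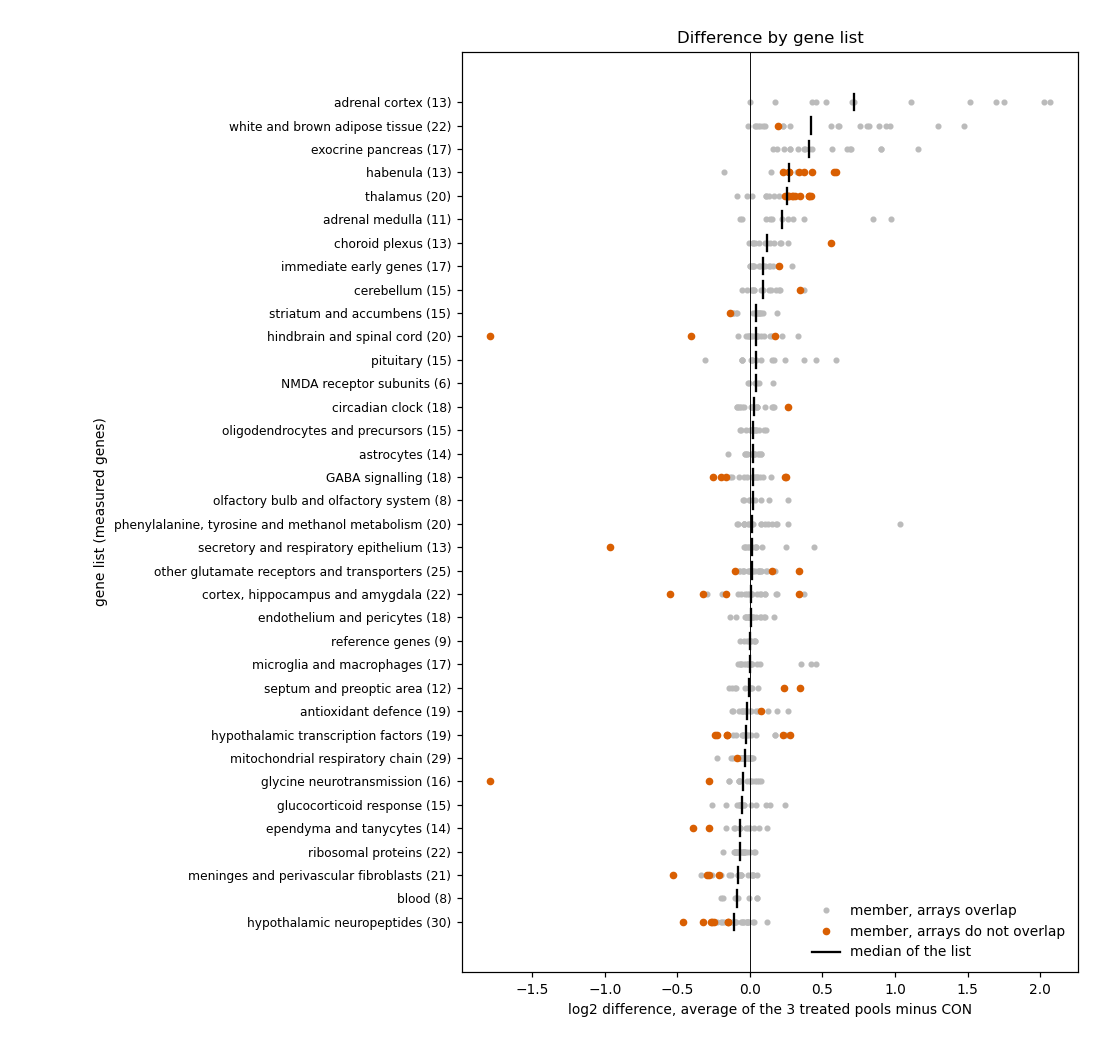
Log2 difference of the average treated pool from CON (horizontal axis) for each measured gene (points) of 36 gene lists (vertical axis, number of measured genes in brackets), orange where the CON arrays lie outside the 9 treated arrays, with the list median as a black bar. Orange points stand to the right for habenula (8) and thalamus (11) and to the left for hypothalamic neuropeptides (7), while the adrenal, pancreatic and adipose lists extend far to the right with 1 orange point among them.

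Of 186 measured miRNA genes 4 were separated and lower, Mir376a, Mir300, Mir491 and Mir680-1, and 2 separated and higher, Mir681 and Mir191. miRNA genes were 1.57% of the lower and 0.957% of the higher separated genes, beside 1.07% of all genes. The array reads the primary or precursor transcript of such genes, so mature miRNA levels were not measured. Mir376a (chr12:109723781-109723848) and Mir300 (chr12:109724313-109724391) lie side by side in the imprinted miRNA cluster of chromosome 12. Their mature sequences, shown because both hairpins were lower in all treated pools, share no seed (bases 2 to 8, in capitals; RefSeq, GRCm38.p6).
mmu-miR-376a-5p: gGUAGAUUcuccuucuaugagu
mmu-miR-376a-3p: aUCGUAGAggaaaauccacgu
mmu-miR-300-5p: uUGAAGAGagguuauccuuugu
mmu-miR-300-3p: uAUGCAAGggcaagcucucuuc

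Mir376a read 6.61, 6.61 and 6.99 in CON, 6.30, 6.39 and 6.02 in CGP, 6.43, 6.17 and 6.09 in ASP and 6.09, 6.13 and 6.55 in ASP+CGP, close to the low end of the array. The nearest arrays were 0.07 apart. It fell by 0.50 ± 0.11 (adjusted p = 0.0381, 0.419 with the pool as a random block), and the test was not passed when CON array 1, 2 or 3 was left out (adjusted p = 0.0858, 0.0682 and 0.170), nor when any 1 of 6 of the 9 treated arrays was left out (adjusted p from 0.0614 to 0.0730). Mir300 read at least 8.495 in CON and between 7.83 and 8.47 in the treated arrays. It fell by 0.27 ± 0.06 (adjusted p = 0.0292), with differences of -0.12, -0.18 and -0.51 in CGP, ASP and ASP+CGP.

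Within 250000 bases of Mir376a, 36 miRNA genes were measured, from position 109571990 to 109743496 of chromosome 12. The average difference was negative in 30 of these 36 and in 62 of the other 150 miRNA genes, with medians of -0.09 and 0.02. An adjusted p under 0.05 was found for 5 of the 36 and 2 of the 150. Mir379, the 1 called gene of the lower group whose arrays overlapped, read 7.25, 7.19 and 7.15 in CON, 6.84, 7.19 and 6.88 in CGP, 6.74, 6.57 and 6.88 in ASP and 6.42, 6.32 and 6.10 in ASP+CGP. The decline over the cluster was uneven between pools, since the difference from CON was negative for 19, 28 and 33 of the 36 genes in CGP, ASP and ASP+CGP, with medians of -0.01, -0.09 and -0.27. These genes share 1 locus and their transcripts, so they are not independent measurements.

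**Figure D4:**
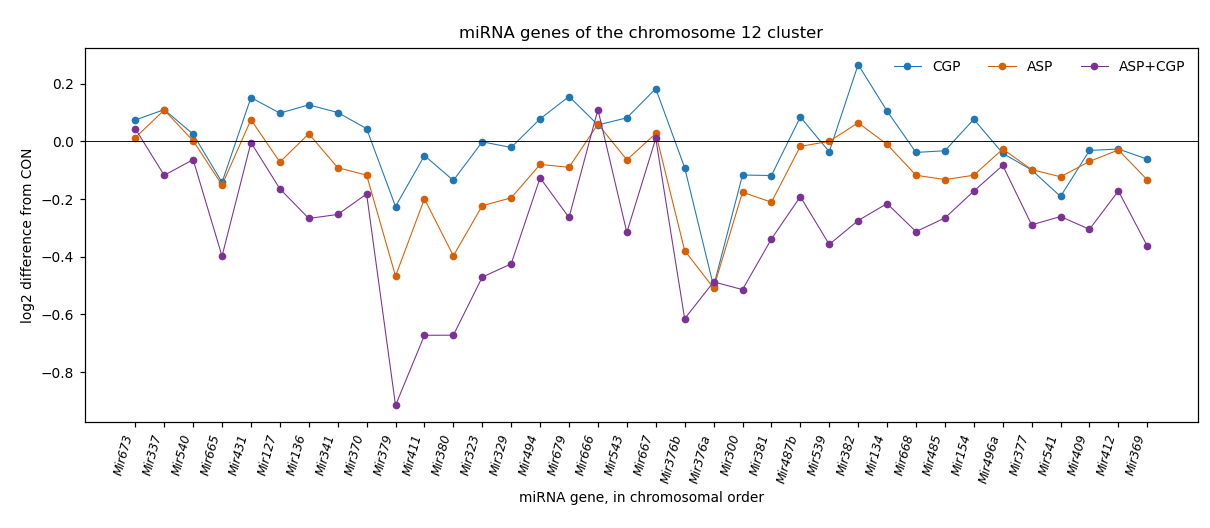
Log2 difference from CON (vertical axis) for each of the 3 treated pools (coloured points joined by lines) at 36 miRNA genes of the chromosome 12 cluster, in chromosomal order (horizontal axis, not to scale). ASP+CGP lies lowest for most genes, down to -0.91 at Mir379, and the 3 pools meet near -0.50 at Mir376a.

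Calling genes at an adjusted p under 0.05 and a fold change over 1.4 gave a different set from the separated genes. It held 44 genes that were higher (0.253%) and 6 that were lower (0.0345%) in the average of the treated pools. Only 3 of the 44 were separated (Chrnb4, Gpr151 and Ttr, 0.0173% of all genes), against 5 of the 6 (0.0288%, Slc6a5, Bpifa1, Lamp5, Prg4 and Mir376a). The remaining 41 higher genes overlapped with CON in at least 1 treated pool, and ASP was the highest pool for all 41. Their difference from CON ran from 1.21 to 6.04 in ASP (median 2.58), whereas the mean difference of CGP and ASP+CGP ran from -0.14 to 0.29 (median 0.05). In 40 of them each of these pools lay near CON, from -0.16 to 0.24 in CGP and from -0.22 to 0.37 in ASP+CGP. The exception was Lhb, the beta subunit of luteinizing hormone from the pituitary, whose differences were 1.10, 1.57 and -0.88 in CGP, ASP and ASP+CGP.

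Lists of other tissues held many of the 41. Of the 13 measured genes of the adrenal cortex 9 were called, of 17 of the exocrine pancreas 7 and of 22 of adipose tissue 11, and only the desaturase gene Scd1 of the adipose list was separated. Cyp11b1, the 11 beta-hydroxylase of corticosterone synthesis, read 6.33, 6.29 and 6.46 in CON, 6.39, 6.49 and 6.32 in CGP, 12.44, 12.39 and 12.39 in ASP and 6.51, 6.53 and 6.38 in ASP+CGP. The ASP arrays alone stood apart, while CON overlapped with CGP and ASP+CGP. Its average difference of 2.07 ± 0.05 (adjusted p = 2.53e-11) was 0.08 without the ASP pool in the average (adjusted p = 0.604). The called counts without ASP were 4 higher and 8 lower. The summed signal of the adrenal cortex list was 1915 to 2001 on CON and 1906 to 21564 on treated arrays, adrenal glands were processed in the same study, and the source of these signals was not tested.

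**Figure D5:**
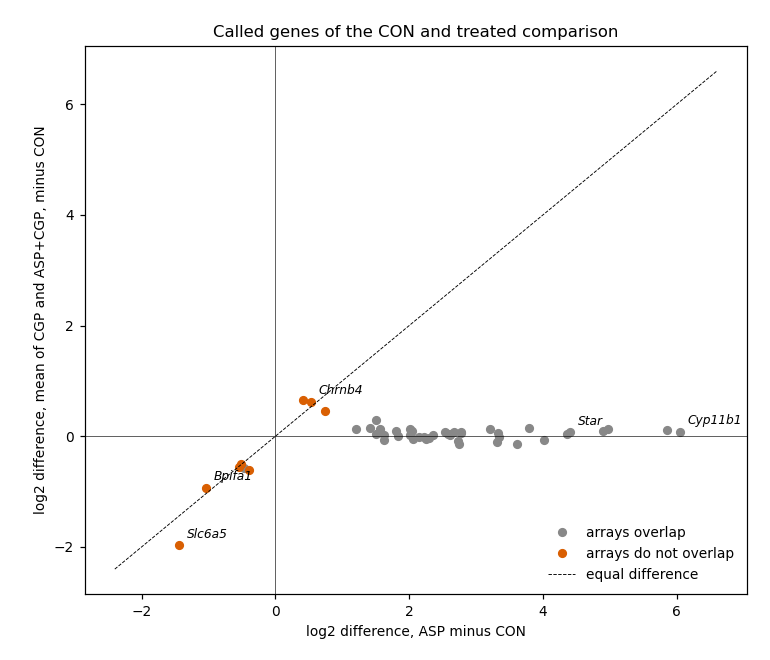
Log2 difference from CON in ASP (horizontal axis) and in the mean of CGP and ASP+CGP (vertical axis) for the 50 called genes, orange where the CON arrays lie outside all 9 treated arrays, with the line of equal difference dashed. The 41 grey points at the right run along 0 on the vertical axis, up to 6.04 in ASP for Cyp11b1 (Lhb lies there as the mean of 1.10 and -0.88), the 8 orange points lie nearer the dashed line, and the grey point at the lower left is Mir379.

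Among the separated genes the pools were uneven in another way. In the 209 higher genes CGP was farthest from CON in 89, ASP+CGP in 82 and ASP in 38, and ASP was nearest in 118. In the 255 lower genes ASP+CGP was farthest in 116, ASP in 101 and CGP in 38, and CGP was nearest in 140. The test among the treated pools was passed by 23 of the 209 (11%) and 10 of the 255 (3.92%). Of all genes 1071 (6.16%) passed it. It compares the treated means only, but the CON arrays enter its estimate of the spread. Without the third CON array 1473 of all genes passed it, and without the first 927. The separated genes were chosen on the same arrays, so these shares are a description.

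Genes just inside the rule were Bnip3, Fndc4 and A530016L24Rik (higher) and Cartpt, Fez1 and Gabrr2 (lower), with differences of 0.14, 0.06, 0.18, -0.24, -0.09 and -0.09. Just outside it were A930016O22Rik, Abcc3 and Grid2ip (0.09, 0.15 and 0.26) and Gnl3, Nkx2-1 and Bola2 (-0.12, -0.11 and -0.09). The list of cortex, hippocampus and amygdala, which holds Lamp5 and Ccn3, had 3 of 22 measured genes separated and lower and 1 separated and higher. In the test 3 of its genes fell and 2 rose, and the list median was 0.01. Other lists had few or no separated genes. Blood, endothelium and pericytes, astrocytes, oligodendrocytes, ribosomal proteins, the pituitary and the reference genes had 0 separated genes, and immediate early genes, the circadian clock and antioxidant defence 1 each.

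A pair of arrays, numbered 3 in CON and 3 in ASP+CGP, strayed most from their pools (SD of the deviation over genes 0.0918 and 0.101, at most 0.0718 for the other arrays). Array medians ran from 8.28 to 8.34. The separated genes depend on single arrays by construction, and 313 higher and 556 lower genes were separated without the first CON array, 436 and 556 without the second, 804 and 558 without the third, and 374 and 390 without the third ASP+CGP array. Subtracting the median of each array turned the split from 209 and 255 to 272 and 220. With both arrays numbered 3 left out, the habenular list had 10, the thalamic list 15 and the peptide list 10 separated genes, each in the direction given above. Over all genes 1032 higher and 706 lower were then separated, against 209 and 255 with all arrays. The peptide list had 5 separated genes with array medians subtracted and 6 after further quantile normalization. The habenular list had 8 and 9 in these settings, and the thalamic list 12 and 12.

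Counts over pools gave further scale. The same rule applied to the CGP pool, with its 3 arrays against the other 9, separated 304 genes above and 137 below. For ASP the counts were 753 and 597, and for ASP+CGP 286 and 475, against 255 and 209 for CON. With the pool as a random block, 2 higher genes (Chrnb4 and Ttr) and 3 lower genes (Slc6a5, Bpifa1 and Lamp5) were called. Of the 49 named separated genes that passed in the array fit 15 passed with the block, from an adjusted p of 0.000108 for Slc6a5 and Bpifa1 to 0.0441 for Ttr, Oxt, Chrna3, Ccn3 and Bsx, and the others did not. The block fit had 10 residual degrees of freedom from repeat arrays of 4 pools, and a fit on the 4 pool means had 2. This limma fit on the pool means called 0 genes, with a lowest adjusted p of 0.167 (Bpifa1). Unadjusted p was under 0.05 there for 285 higher and 200 lower genes.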

How the data were processed

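RNA of hypothalamus blocks, pooled from all mice of a group, had been hybridized in triplicate to 12 Affymetrix Mouse Gene 1.0 ST arrays. The deposited values are log2 signals that the authors made with RMA (background correction, quantile normalization and median polish, Partek Genomics Suite), 1 per probe set and array. The methods state that signals under 6 were filtered, and 2496 of the 29149 probe sets were under 6 on at least 1 array. Quantile normalization sets all arrays to nearly the same distribution, so only changes relative to other genes are read. The number of arrays limits precision.

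Probe sets with 1 gene symbol in the platform annotation (19019; 1197 had several and 8933 none) were tested, 18947 of them matched to RefSeq GRCm38.p6. A gene was represented by its probe set of highest mean signal (17380 genes). limma (version 3.58.1, R 4.3.3) was fitted with a mean per group over all 12 arrays, and the contrast was the average of the CGP, ASP and ASP+CGP means minus the CON mean. P-values were Benjamini-Hochberg adjusted over the 19019 probe sets. A gene was called at an adjusted p under 0.05 and a fold change over 1.4, and "separated" means that the 3 CON arrays lay above or below all 9 treated arrays. In data simulated for this contrast over 17380 genes, 96% of 100 genes changed 1.5-fold and 100% of 100 genes changed 2-fold were called, with 0 false calls. The simulation held array noise only and no spread between pools, so it says nothing of false calls from 1 pool a group.

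Genes were named by a rule: among separated genes the 15 largest rises and 15 largest falls, the 10 widest gaps, up to 4 genes of each list and 3 just inside and outside the rule per direction, the 6 largest called genes with overlapping arrays, and Actb, NMDAR subunits and hypothalamic markers (Grin1 and Agrp had no single-symbol probe set). Further members of the lists, miRNA genes and the chromosome 12 cluster were named after their values were seen. The members and gene lists were chosen with earlier results of these data known. Alternatives covered filters, probe set choice, scaling, thresholds, the replicate number as a block, arrays and pools left out and the spread between pools. Figures were drawn with matplotlib (version 3.10.9).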

Additional observations from a re-analysis of the deposited data

Results flagged for a closer look

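The 3 treated pools differed among themselves, by limma's F test, for 26 of the named genes. In 6 of these the ASP pool alone was far above the others: Cyp11b1 (adjusted p = 2.06e-16), Star (2.86e-15), Cyp21a1 (9.66e-15), Car3 (1.26e-14), Cyp11a1 (2.72e-14) and Hsd3b1 (3.52e-14). ASP was also the highest pool for Scd1 (3.51e-06) and Hp (5.69e-06), a haptoglobin gene whose difference from CON was 0.11, 0.96 and 0.18 in CGP, ASP and ASP+CGP. ASP+CGP was the lowest for the meningeal genes Slc6a13 (1.98e-05), Prg4 (0.000475) and Igf2 (0.000494).

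Other genes that were higher than CON on every treated array differed among the treated pools as well. Beside Scd1, Hp and Ttr (0.0208) these were Scube1 (adjusted p = 0.000695), Acp5 (0.000745), Chrnb4 (0.000796), Lhx9 (0.000971), Gabra4 (0.00174), Zic5 (0.00189), Nwd2 (0.00866), Gpr151 (0.0164), Rora (0.0215), Slc17a7 (0.034) and Zic1 (0.0343). The remaining genes were Slc6a5 (0.000731), Avp (0.0318) and the NMDAR subunit gene Grin2a (0.0487), whose difference from CON was 0.11, -0.05 and 0.08 in CGP, ASP and ASP+CGP.

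Probe sets outside the comparison showed the same separation. Among those with several symbols 36 (3.01%) and among those with none 184 (2.06%) had CON arrays outside all 9 treated arrays, against 2.67% of the genes.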

How the results depend on the processing

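The arrays of a group were repeats of 1 pool, so every count below rests on 4 pools, and the spread among arrays was the base of the test. Leaving out single arrays gave 44 to 49 called genes that were higher and 5 to 6 that were lower, 216 to 804 and 270 to 558 separated genes, 3 to 10 and 4 to 6 genes called and separated, and 645 to 1473 genes that differed among treated pools. A separation needs fewer arrays to agree when an array is left out, which raises these counts by construction. With array 3 of CON and array 3 of ASP+CGP both left out 1032 and 706 genes were separated, 10 of the higher genes were also called, and 1806 genes differed among treated pools.

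With CGP left out of the average 70 higher genes were called, 654 lower genes were separated and 7 higher genes were both. With ASP left out 4 higher genes were called and 567 and 447 were separated, and with ASP+CGP left out 87 were called, 597 and 611 separated and 26 higher genes both. With the pool as a random block 2 higher and 3 lower genes were called, the lower 3 being separated (2 higher genes were both), and on the 4 pool means 0 and 0 were called and 0 and 0 were both. With the random block 10 higher and 9 lower genes had an adjusted p under 0.05, against 252 and 101 in the array fit. Unadjusted p was under 0.05 for 443 higher and 426 lower genes with the random block and for 285 and 200 on the pool means.

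Without a threshold on fold 252 higher and 101 lower genes were called and 91 and 78 of them were separated. At a fold of 1.2 these counts were 136 and 30, with 33 and 23 separated, and 681 genes differed among treated pools. At a fold of 2 they were 13 and 1, with 0 and 1 separated, and 75 differed. Bonferroni adjustment left 221 genes that differed among treated pools. A gap of at least 0.1 left 29 higher and 20 lower separated genes and a gap of at least 0.2 left 5 and 6.

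The replicate numbers did not pair the arrays, since 6 of 18 same-numbered pairs correlated above 0.1 (range -0.112 to 0.536). With the replicate number as a block 44 higher and 5 lower genes were called, 3 and 4 of them separated, and 1077 differed among treated pools. Of the named genes Mir376a alone lost its call under the block (adjusted p = 0.0616).

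Among named genes 12 values changed sign, all of NMDAR subunit genes that passed no test. For Grin2d (-0.01) they were 0.00317 after further quantile normalization, 0.0352 without the ASP+CGP pool, and 0.000644 to 0.0288 with single arrays left out (range over all single arrays -0.0628 to 0.0288). For Grin3b they were 0.00213 with array medians subtracted, 0.000622 without this pair of arrays, 0.0240 without the ASP pool, and 0.000607 to 0.00491 with single arrays left out (range -0.0128 to 0.00491). Of the other values of named genes under the alternatives, 2061 kept direction and side of the threshold, 47 lost a call and 7 gained one. The cause of these changes was not tested.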

Other observations

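Some further separated genes were chosen after their values were seen. Among them Magel2, Gpr101, Calcr and Asb4 are known from hypothalamic neurons. Magel2, an imprinted gene of the Prader-Willi region, fell by 0.22 ± 0.03 (SE, limma adjusted p = 0.00254), Gpr101, an orphan receptor, by 0.28 ± 0.05 (adjusted p = 0.00855), Calcr, the calcitonin receptor, by 0.22 ± 0.04 (adjusted p = 0.00401) and Asb4, a ubiquitin ligase subunit of arcuate neurons, by 0.25 ± 0.05 (adjusted p = 0.00794). Adcy1, a calcium-stimulated adenylyl cyclase, rose by 0.31 ± 0.04 (adjusted p = 0.000317) and Rasgrp1, an activator of Ras, by 0.29 ± 0.04 (adjusted p = 0.000607). Adcy1 alone of these 6 passed with the pool as a random block (adjusted p = 0.0122).

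On the X chromosome 17 of 573 genes were separated and lower and 4 separated and higher, against 1.47% and 1.2% of all genes. Other chromosomes were uneven too, in either direction. Chromosome 13 had 16 lower and 3 higher of 611 genes, and chromosome 16 had 12 and 1 of 551. Chromosome 14 leaned the other way, with 5 lower and 12 higher of 608. A mean log2 signal under 7 was found for 13.9% of the higher and 3.53% of the lower separated genes, against 17.9% of all genes. Of the separated genes with more than 1 probe set, 2 of 13 higher and 1 of 16 lower genes had all their probe sets separated the same way.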
